A study of Mus musculus with 8 samples.

Results

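Solute carriers are the membrane proteins that move small molecules into, out of and within cells, and the 28 described here are the protein-coding genes named Slc or Slco, outside the mitochondrial Slc25 family, that were detected in sorted muscle satellite cells (SCs). They were chosen by name and by a mean of at least 1 FPKM (a read density corrected for transcript length and library size) over 8 libraries, with Slc37a3 and Slc40a1 left out by name. They made up 28 of the 4328 genes that reached this mean, and 28 of 336 genes that fitted the name rule at any level. The libraries came from SCs of 4 control samples, from untrained (sedentary) mice, and of 4 exercise samples, from mice that ran on a treadmill for 4 weeks (4 days a week, 30 min a day, 12 m/min). The methods give the mice as male C57B/6J, 10 weeks old when they were put into groups, and name no genetic change for these groups. SCs were sorted from the tibialis anterior as CD34+ integrin α7+ cells negative for CD45, CD11b, CD31 and Sca1, and about 800 cells went into each poly(A) RNA library. The study counts mice as its replicates for these data, but no label ties a library to a mouse, so all p-values measure the spread between these libraries, which may be in part technical.

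Most solute carriers are named by family. Slc1, Slc7 and Slc38 carry amino acids, Slc2 sugars, Slc30 and Slc39 zinc, Slc16 lactate and pyruvate, and Slc29 nucleosides. Many run on the sodium gradient made by the sodium pump, and some need a partner protein to reach the membrane. In muscle, carriers bring in glucose, glutamine and leucine, and amino acid supply through them feeds the mTORC1 growth pathway.

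The libraries differed from each other in ways that bear on every value below. They held 2339966 to 3013354 reads on genes in control samples and 1011737 to 1200221 in exercise samples, and mitochondrial transcripts took 50.2% of reads in exercise 3 and 68.7% in exercise 4 against 2.09% to 15.3% in the other libraries. Exercise 1 and 2 were far closer to each other (chi-square of read counts per degree of freedom 3.86) than any other pair of libraries (82.6 to 721). Genes read in control 1 and not in control 3 kept 0.281 of their reads in control 4, at equal read totals, and genes read in control 3 and not in control 1 kept 0.714. In the same way exercise 3 held a median of 0.299 of the reads of genes found in exercise 1 and not exercise 4, and 0.677 of those found in exercise 4 and not exercise 1. These are ratios of read counts per gene, and no reads themselves were compared. Control 4 may thus not be independent of control 1 and 3, exercise 3 of exercise 1 and 4, nor exercise 1 and 2 of each other, and tests of 4 against 4 libraries may count too many samples. The sort was checked against SC markers: Pax7, Itga7, Cdh15 and Calcr, 4 of 14 markers listed, had no read in any library, while 10 myofibre genes summed to 32693 to 56176 FPKM in control and 19592 to 59479 FPKM in exercise libraries. The other 10 SC markers summed to 34.3 to 70.8 FPKM in control and 32.6 to 125 FPKM in exercise libraries, but went opposite ways. Chodl, Fgfr4, Vcam1, Myf5 and Cxcr4 were read in control libraries only, Heyl was read in exercise libraries only, and Sdc4 (3.25 to 33.8 FPKM in control, 30.0 to 76.1 FPKM in exercise libraries) made up most of each exercise sum. In bulk samples, fewer cells of a type and less RNA per cell cannot be told apart.

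Of the 336 named genes, 82 (24.4%) had a read in any library, against 35.4% of 22027 protein-coding genes. Reads came from control libraries only for 52 of these genes, from exercise libraries only for 10, and from both groups for 20. Control libraries 1 to 4 detected 35, 46, 54 and 66 solute carrier genes, and exercise libraries 1 to 4 detected 25, 21, 22 and 11. The control libraries were deeper, so the numbers expected at an equal depth of 1011737 reads were computed, and these were 30.9, 39.1, 47.2 and 56.3 in control and 24.9, 21, 21.6 and 10.5 in exercise libraries. The groups did not overlap at either depth, and the same held for all protein-coding genes (4506 to 6430 detected in control libraries, 2017 to 2883 in exercise libraries). Zinc, iron, copper and magnesium carriers were the most often detected of the larger classes, with a read for 15 of 31, whereas 16 of 78 amino acid and neurotransmitter carriers and 9 of 52 organic ion carriers had one. None of the 6 fatty acid carriers of the Slc27 family had a read.

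**Figure D1:**
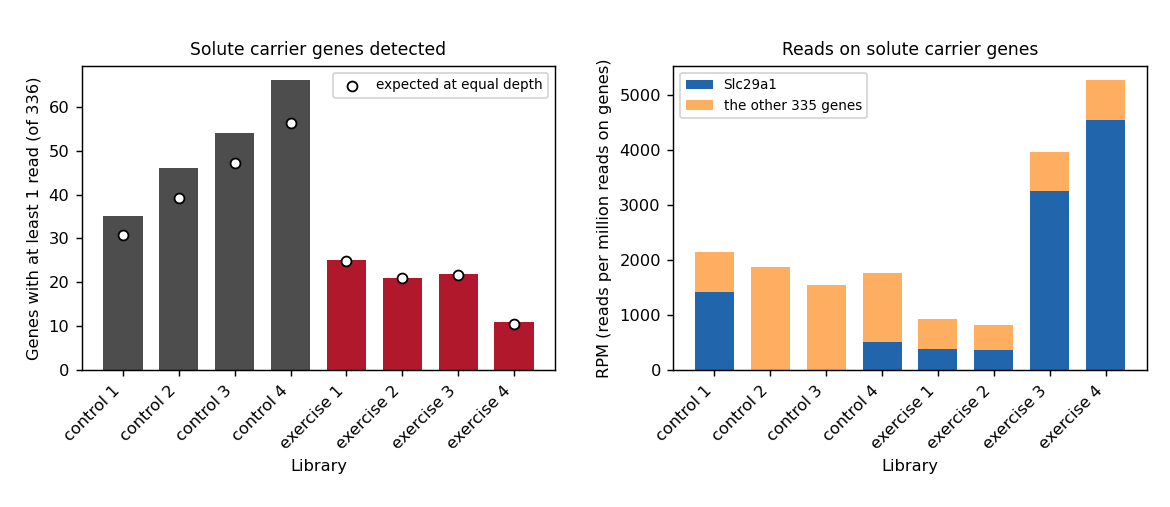
Left, number of the 336 solute carrier genes with at least 1 read in each library (bars, grey for control and red for exercise) and the number expected when every library is thinned to 1011737 reads, mitochondrial reads included (white circles). Right, reads on these genes, in RPM (reads scaled to the library total on genes, not to gene length), split into Slc29a1 (blue) and all other solute carrier genes (orange). The exercise bars on the left (11 to 25 genes) lie below all control bars (35 to 66), and Slc29a1 fills most of the bar in control 1, exercise 3 and exercise 4.

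Solute carrier reads were a small part of each library, from 0.0827% in exercise 2 to 0.526% in exercise 4. Slc29a1 alone took 66.4% of them in control 1, 82.3% in exercise 3 and 86.4% in exercise 4. In control 2 and control 3 the leading gene was Slc3a2, with 29.1% and 22.6%. The ranking of solute carriers therefore differed between libraries of the same group.

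Among the 28 members, 11 (39.3%) had no read in any exercise library, against 30.4% of all genes tested, and 4 (14.3%) had none in any control library, against 4.69%. Slc1a5 and Slc29a1 were the 2 members with reads in all 8 libraries. Because the mean over both groups chose the members, 16 passed with an exercise mean below 1 FPKM and 6 with a control mean below 1 FPKM. These 22 had to differ between the groups, so the counts of higher and lower members describe the selection as well as the cells. The other 6 reached 1 FPKM in both groups.

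With limma on log2(FPKM + 1), 6 members were lower in exercise libraries at an adjusted p under 0.05 (21.4%, against 26.8% of all genes tested), namely Slc3a2, Slc48a1, Slc41a3, Slc38a9, Slc39a14 and Slc20a2. Another 4 were higher (14.3%, against 8.78% of all genes), namely Slc5a6, Slc22a23, Slc43a3 and Slc22a4. The groups did not overlap for 6 lower members (21.4%, against 24.0% of all genes) and 2 higher members (7.14%, against 7.62%). Both shares lie near those of all genes. These counts take a count of 0 as it stands. In exercise 4 the limit that 3 reads set on a count of 0 lay above the lowest control value for 5 of the 6 lower members (Slc3a2, Slc20a2, Slc30a7, Slc41a3 and Slc4a4), and Slc39a14 was the 1 that stayed separate at that limit. The median difference, exercise minus control, was -1.41 over the members and -1.42 over all genes on the log2 scale, with 14 members above and 14 below the latter. With genes that had no read in a group set to the fold that 3 reads per library allow, the medians were -0.89 and -0.78.

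The deposited scale carries this general drop, and quantile normalization, which gives every library the same distribution, moved the median of all genes by 0.97, to -0.44. Scaling to read totals and to a constant sum moved it the other way, to -1.62 and -1.89. After quantile normalization 1 member was lower (Slc3a2, against 8.66% of all genes) and 5 were higher (against 13.1% of all genes). Those 5 were the 4 called before and Slc16a1. With the values of exercise 1 and 2 averaged as 1 sample only Slc3a2 was called, against 13.9% of all genes. With control 4 and exercise 3 also left out, since they may not be independent of the other libraries, limma called 0 of the 28 members and 0 of the 4328 genes, and 1 member had an unadjusted p under 0.05. Slc3a2 was also the 1 member of the 10 that stayed called when each of the 8 libraries was left out in turn.

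**Figure D2:**
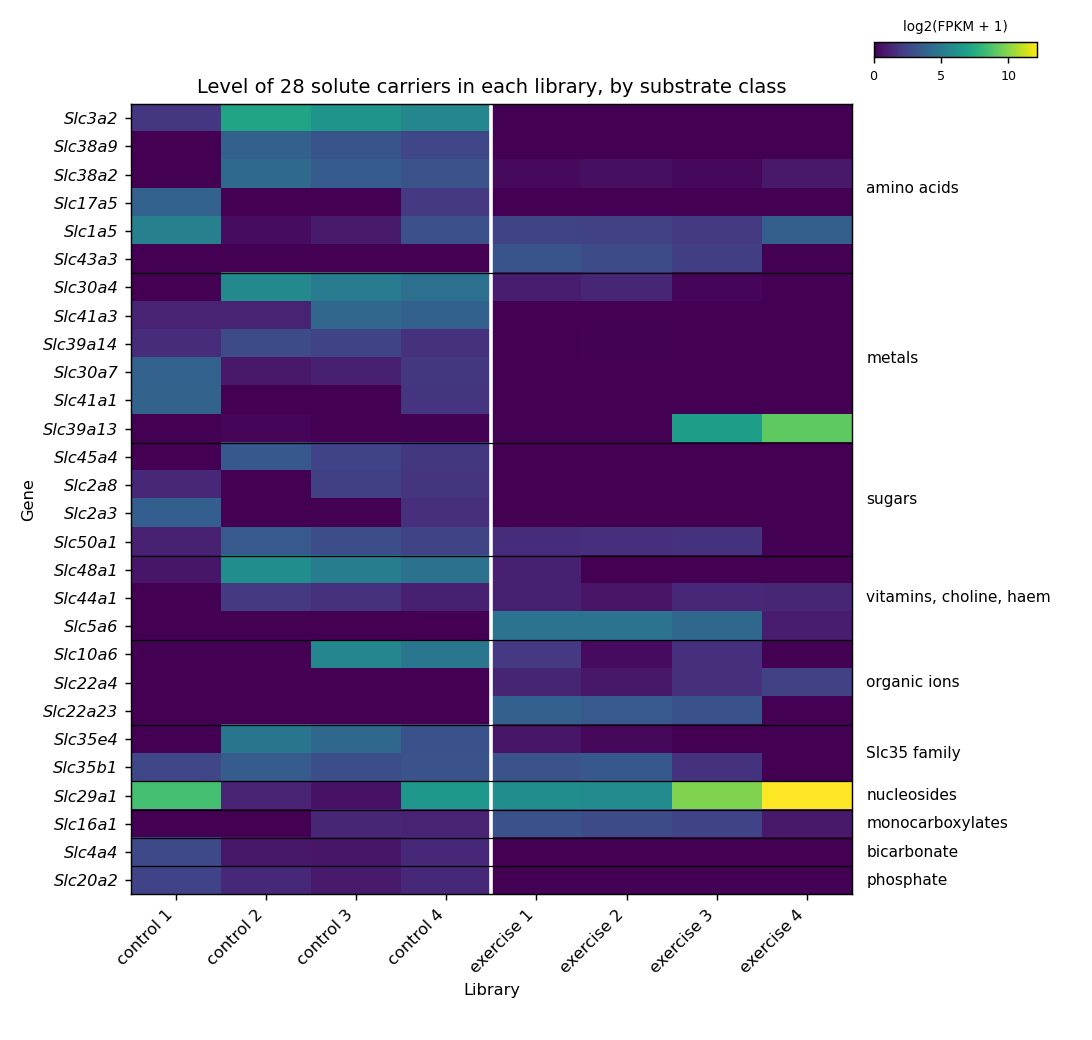
Level of each of the 28 solute carriers (rows, grouped by substrate class) in the 8 libraries (columns), as log2(FPKM + 1) from 0 (dark) to the highest value (yellow), with a white line between control and exercise. Slc3a2, Slc38a9, Slc30a4 and Slc48a1 are bright in control 2 to 4 and not in control 1, and the brightest square is Slc29a1 in exercise 4 (4550 FPKM).

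The members fell into groups by the control library in which they were highest. In 12 of the 24 members with control reads the highest level was in control 2, in 8 it was in control 1, in 4 in control 3, and in none in control 4. Over all genes tested these shares were 37.1% for control 2, 42.2% for control 1, 17.9% for control 3 and 2.79% for control 4. Slc3a2, Slc38a2, Slc38a9, Slc30a4, Slc39a14, Slc45a4, Slc50a1, Slc44a1, Slc48a1 and Slc35e4 shared the order control 2 over 3 over 4 over 1, as did 29.3% of all genes with control reads. The sum of endothelial markers had that order too, with 2994, 1669 and 1076 FPKM in control 2, 3 and 4, 0.0925 FPKM in control 1 and 4.42 to 26.2 FPKM in exercise libraries. Kdr made up nearly all of the sums in control 2 to 4. Tek went the other way, with no read in control 2 to 4, and made up nearly all of the sums in exercise libraries. Of the 10 listed endothelial markers, 6 had no read, among them Cdh5 and Pecam1, which encodes the CD31 that the sort gated out. Glial markers (3 of 5 read, Sox10 and Mbp at 0) had the same control order, with sums of 1.18, 20.6, 17.1 and 11.5 FPKM in control 1 to 4 and 0 to 4.68 FPKM in exercise libraries. The sum of SC markers had it as well, with 34.3, 70.8, 51.8 and 40.5 FPKM in control 1 to 4, although Chodl and Fgfr4 were highest in control 1. The order is thus not particular to endothelial or glial markers. Myofibre, tendon and fibro-adipogenic sums were highest in control 1. The part of any of these cell types in the result was not tested.

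Of the 4 called rises, 3 had a common profile. Slc5a6, Slc22a23 and Slc43a3 were unread in control libraries, high in exercise 1 to 3 and near or at 0 in exercise 4, while Slc22a4 was highest in exercise 4. Of the exercise libraries, exercise 4 was also lowest in the sums of SC, endothelial, mural, tendon and fibro-adipogenic markers. It was highest in the sums of myofibre and glial markers. In exercise 1 to 4, SC markers summed to 125, 109, 69.3 and 32.6 FPKM, and endothelial markers to 24.5, 26.2, 14.7 and 4.42 FPKM. Of the SC markers, Heyl alone was unread in control and read in exercise libraries (28.4, 27.2, 11.8 and 0.679 FPKM). In exercise 1 to 4, mural markers summed to 87.5, 89.3, 45.6 and 5.72 FPKM (2.88 to 46.1 in control libraries, 3 of 9 read, Tagln, Rgs5 and Cspg4 among those at 0). Acta2 went the other way and made up nearly all of the mural sums in control 3 and 4 (43.3 and 35.1 FPKM, against 0 to 2.03 FPKM elsewhere). Tendon markers summed to 1378, 1357, 743 and 243 FPKM (456 to 1013 in control libraries, 5 of 5 read), and fibro-adipogenic markers to 10788, 11082, 6110 and 4076 FPKM (3107 to 4876 in control libraries, 10 of 10 read). The sort gated out Sca1, which Ly6a of the last list encodes. Single markers of these lists did not all follow the sums, since Lum was highest in exercise 4 and Pdgfra was lower in every exercise library than in any control library. The part of such cells in the result was not tested.

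**Figure D3:**
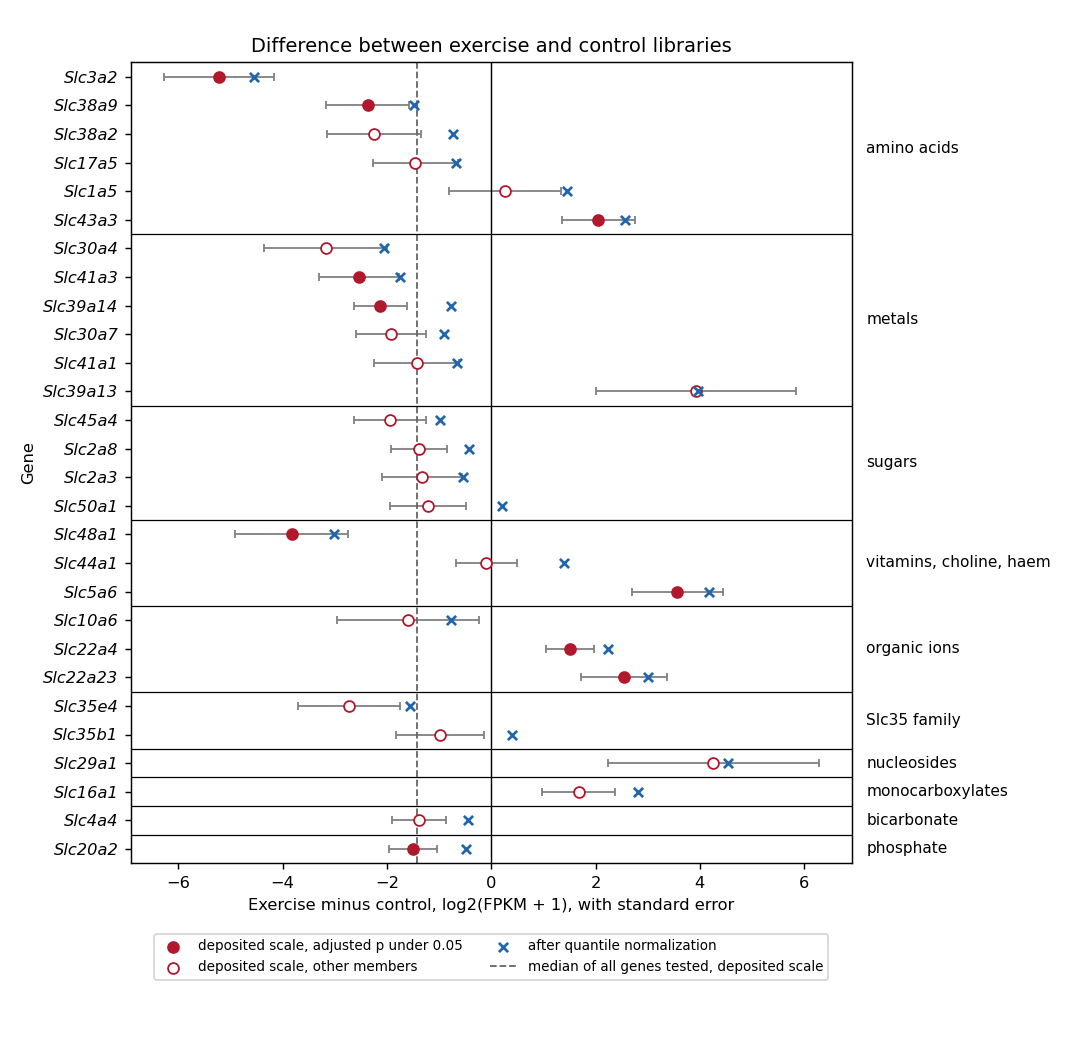
Difference between exercise and control libraries on log2(FPKM + 1) for each member, by substrate class, with its standard error. Filled red circles have a limma adjusted p under 0.05, open circles are the other members, blue crosses are the same differences after quantile normalization, the solid line is 0 and the dashed line is the median of all genes (-1.42). The differences run from -5.23 (Slc3a2) to 4.26 (Slc29a1), and every cross lies to the right of its circle.

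Amino acid carriers (6 members by family name) included 2 called lower, 1 called higher and 3 not called, with a median difference of -1.85 (over all genes 26.8% were called lower and 8.78% higher, with a median of -1.42). Slc3a2 encodes the CD98 heavy chain, which takes the light chains of amino acid exchangers such as Slc7a5 to the surface. Its level was 2.84, 134, 76.5 and 47.9 FPKM in control 1 to 4, from 23, 1453, 1054 and 673 reads, and no exercise library had a read. Control 1 lay nearer to the exercise libraries than to the other controls, and a count of 0 in exercise 4 allows up to 2.95 FPKM, above control 1, so it was not detectable at this depth whether the groups are separate. The difference was -5.23 (SE 1.05, limma adjusted p = 0.00768), which is -3.81 relative to the median of all genes, and the exact permutation p of 0.0286, which takes that count as 0, is the smallest that 70 assignments allow. At 3 reads per library as the limit of a count of 0, the mean was at least 55.0-fold lower, or 35.7-fold without control 2. Its light chains were hardly seen: Slc7a5 had 5 reads, in exercise 3 (0.730 FPKM) and exercise 4 (1.87 FPKM), and Slc7a8 had none.

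Slc38a2 and Slc38a9 were both highest in control 2 and unread in control 1. Slc38a2 (SNAT2), a sodium-coupled carrier of small neutral amino acids, was at 0, 17.6, 10.7 and 7.65 FPKM in control 1 to 4 and at 0.259, 0.406, 0.195 and 0.750 FPKM in exercise 1 to 4, the latter from 1 to 3 reads each. Slc38a9, a lysosomal carrier that reports arginine to mTORC1, was at 0, 12.6, 7.88 and 4.96 FPKM in control and had no read in exercise libraries. The groups overlapped through control 1. Slc38a9 was called lower (-2.37, SE 0.79, adjusted p = 0.0436 in limma) and was at least 25.3-fold lower. Slc38a2 was not called (-2.25, SE 0.90, limma adjusted p = 0.0711). Without control 1, where neither had a read, Slc38a2 was called too (limma adjusted p = 0.000615) and Slc38a9 stayed called (limma adjusted p = 0.000429). Without any other single library Slc38a9 was not called (limma adjusted p up to 0.108).

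Slc1a5 (ASCT2), the main glutamine entry of growing cells, was the member closest to no difference among the amino acid carriers. It was at 38.4, 0.313, 0.860 and 6.92 FPKM in control and at 4.59, 4.21, 3.24 and 11.6 FPKM in exercise libraries. The control range enclosed the exercise range, and the difference of 0.26 (SE 1.08, limma adjusted p = 0.853) changed sign without control 2 (-0.41), without control 3 (-0.24) and without exercise 4 (-0.08), and was -0.23 with a constant sum, -0.075 scaled to read totals and 1.45 with quantile normalization. Slc17a5 (sialin), which exports sialic acid from lysosomes and is grouped here by its family, was read in control 1 (13.1 FPKM) and control 4 (3.04 FPKM) only. It was not called (-1.46, SE 0.81, limma adjusted p = 0.161).

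Slc43a3, a purine nucleobase carrier despite its place in an amino acid carrier family, was the opposite case. It had no read in control libraries and was at 8.04, 5.76 and 3.84 FPKM in exercise 1 to 3, with no read in exercise 4, where a count of 0 allows up to 2.33 FPKM. It was called higher (2.05, SE 0.70, limma adjusted p = 0.0466) and at least 20.7-fold higher. Averaging exercise 1 and 2 ended the call (limma adjusted p = 0.102), and of the fits without 1 library only that without exercise 4 kept it (limma adjusted p = 0.00207, against up to 0.118).

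Metal carriers (6 members) included 2 called lower and none called higher, with a median difference of -2.03, against 26.8% called lower and a median of -1.42 over all genes. Those called were Slc41a3, of a magnesium carrier family, and Slc39a14 (ZIP14), which takes up zinc, iron and manganese. Slc41a3 was at 1.35, 1.23, 15.1 and 12.6 FPKM in control libraries and had no read in exercise libraries. It was called lower (-2.54, SE 0.77, adjusted p = 0.0341 in limma) and was at least 5.25-fold lower. The call held without control 1 or control 2 and was lost without any other library (limma adjusted p up to 0.0981). Its high libraries, control 3 and 4, were also those with erythroid markers (sums of 119 and 57.1 FPKM against 0 to 1.56 FPKM elsewhere, 4 of 6 markers read, Alas2 at 0), and their part in the result was not tested.

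Slc39a14 was read in every control library. It was at 1.90, 6.10, 4.71 and 2.31 FPKM in control libraries, from 46 to 197 reads, and had 1 read in exercise 2 (0.0594 FPKM) and none in the other exercise libraries. The groups were separate, with a difference of -2.13 (SE 0.50, limma adjusted p = 0.0142). The call held in 5 of the 8 fits that left out a library and was lost without exercise 1, 2 or 3 (limma adjusted p up to 0.0612).

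The zinc exporters Slc30a4 (ZnT4) and Slc30a7 (ZnT7), which load zinc into vesicles and the Golgi, were high in different control libraries. Slc30a4 was at 0, 51.6, 31.0 and 20.5 FPKM in control and at 0.873, 1.49, 0.165 and 0 FPKM in exercise libraries. Slc30a7 was at 13.0, 0.764, 1.08 and 2.98 FPKM in control libraries, from 332, 26, 47 and 132 reads, and had no read in exercise libraries. Both just missed the threshold (-3.18, SE 1.18, limma adjusted p = 0.0570 for Slc30a4, and -1.92, SE 0.68, limma adjusted p = 0.0503 for Slc30a7). A count of 0 for Slc30a7 in exercise 4 allows up to 0.936 FPKM, above control 2. Slc41a1, a magnesium carrier of the plasma membrane, was read in control 1 (13.7 FPKM) and control 4 (2.61 FPKM) only, with a limma adjusted p of 0.168.

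Slc39a13 (ZIP13), a zinc carrier of the secretory pathway, stood apart from the other metal carriers. It had no read in exercise 1 and 2, and 110 and 562 FPKM in exercise 3 and 4, from 594 and 788 reads, while the control libraries held 3 reads in all. The difference of 3.92 had an SE of 1.92 and was not called (limma adjusted p = 0.126). The gene (chr2:91061791-91070417, minus strand) overlaps Psmc3 on the other strand, and whether the counting used strand is not given in the sources used here. Psmc3 was at 9.53, 172, 117 and 70.6 FPKM in control and at 0, 0.721, 13.8 and 77.2 FPKM in exercise libraries.

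The 4 sugar carriers were all lower in exercise libraries, as were 2954 of all 4328 genes. None was called, against 26.8% of all genes called lower and 8.78% called higher. Their median difference was -1.36, against -1.42 over all genes. Slc50a1, a sugar carrier of the SWEET family, was at 1.19, 9.58, 6.29 and 4.62 FPKM in control and at 2.04, 2.14, 2.46 and 0 FPKM in exercise libraries. Its difference of -1.21 (SE 0.74, limma adjusted p = 0.190) turned to 0.21 under quantile normalization. Slc2a3 (GLUT3) was read in control 1 (11.6 FPKM) and control 4 (2.15 FPKM) only, Slc2a8 (GLUT8) in control 1, 3 and 4 (1.63, 3.99 and 2.58 FPKM), and Slc45a4, of a proton-coupled sugar carrier family, in control 2 to 4 (9.17, 4.45 and 2.90 FPKM). None of these 3 had a read in exercise libraries, and their limma adjusted p-values were 0.175, 0.0657 and 0.0524. The main muscle glucose carriers stayed far below the threshold, Slc2a4 (GLUT4) with 4 reads and Slc2a1 (GLUT1) with 13, all in control libraries.

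The class of vitamins, choline and haem held the second largest fall and the largest called rise of all members. Slc48a1 (HRG1), which moves haem out of lysosomes, was at 0.648, 61.8, 34.7 and 22.2 FPKM in control libraries. In exercise libraries it had 5 reads in exercise 1 (1.11 FPKM) and none elsewhere. The groups overlapped through control 1, yet the gene was called (-3.83, SE 1.09, limma adjusted p = 0.0289), or -2.41 relative to the median of all genes. Of the 8 fits that left out a library, the call held in that without control 1 alone (limma adjusted p = 0.000277, against up to 0.0826).

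Slc5a6 (SMVT), the sodium-dependent carrier of biotin and pantothenate, had no read in any control library. It was at 23.5, 23.9, 16.5 and 0.869 FPKM in exercise 1 to 4, from 157, 152, 73 and 1 reads. All 4 exercise libraries lay above all controls, exercise 4 by 1 read. It was called higher (3.57, SE 0.88, limma adjusted p = 0.0166, exact permutation p = 0.0286), at least 67.9-fold. The call held in 4 of the 8 fits that left out a library and was lost without control 4 or exercise 1, 2 or 3 (limma adjusted p up to 0.0564). The gene overlaps Atraid on the other strand, which had 70 reads over the 8 libraries, 62 of them in control, where Slc5a6 had none. Slc44a1, a choline carrier, differed least of all members, at 0, 3.01, 2.29 and 1.08 FPKM in control and 1.12, 0.541, 1.56 and 1.50 FPKM in exercise libraries (-0.10, SE 0.59, limma adjusted p = 0.895).

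Of the 3 organic ion carriers, 2 were called higher, against 8.78% of all genes, and neither call held with exercise 1 and 2 averaged (limma adjusted p = 0.0901 for Slc22a23 and 0.0583 for Slc22a4). Slc22a23, an orphan of the organic ion family, had no read in control libraries and was at 12.2, 9.62 and 7.49 FPKM in exercise 1 to 3, with none in exercise 4. It was called higher (2.55, SE 0.82, limma adjusted p = 0.0394) and at least 49.1-fold higher. Without 1 library the call held only where exercise 4 was left out (limma adjusted p = 0.000865, against up to 0.102). Slc22a4 (OCTN1), a carrier of ergothioneine and organic cations, was at 1.41, 0.736, 2.12 and 4.08 FPKM in exercise libraries and had no read in control libraries. These levels came from 6, 3, 6 and 3 reads, so the highest FPKM, in exercise 4, was the lowest in RPM (2.60 against 5.67 in exercise 1). It was called (1.51, SE 0.46, limma adjusted p = 0.0343). At 3 reads per control library its mean was 5.59-fold higher, or 3.81-fold without exercise 4. These folds leave out the counting error of the 3 to 6 reads in exercise libraries, so they are not lower limits. The call held without control 1, exercise 2 or exercise 4 and was lost without any other library (limma adjusted p up to 0.109).

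Slc10a6, a carrier of sulphated steroids, rested on control 3 (49.1 FPKM) and control 4 (26.7 FPKM). It had no read in control 1 and 2 and was at 3.10, 0.295, 2.12 and 0 FPKM in exercise libraries. The difference of -1.60 had an SE of 1.36 and was not called (limma adjusted p = 0.341). Like Slc41a3, it was high in control 3 and 4, the libraries with erythroid markers, whose part in the result was not tested. Control 4 may not be independent of control 3.

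**Figure D4:**
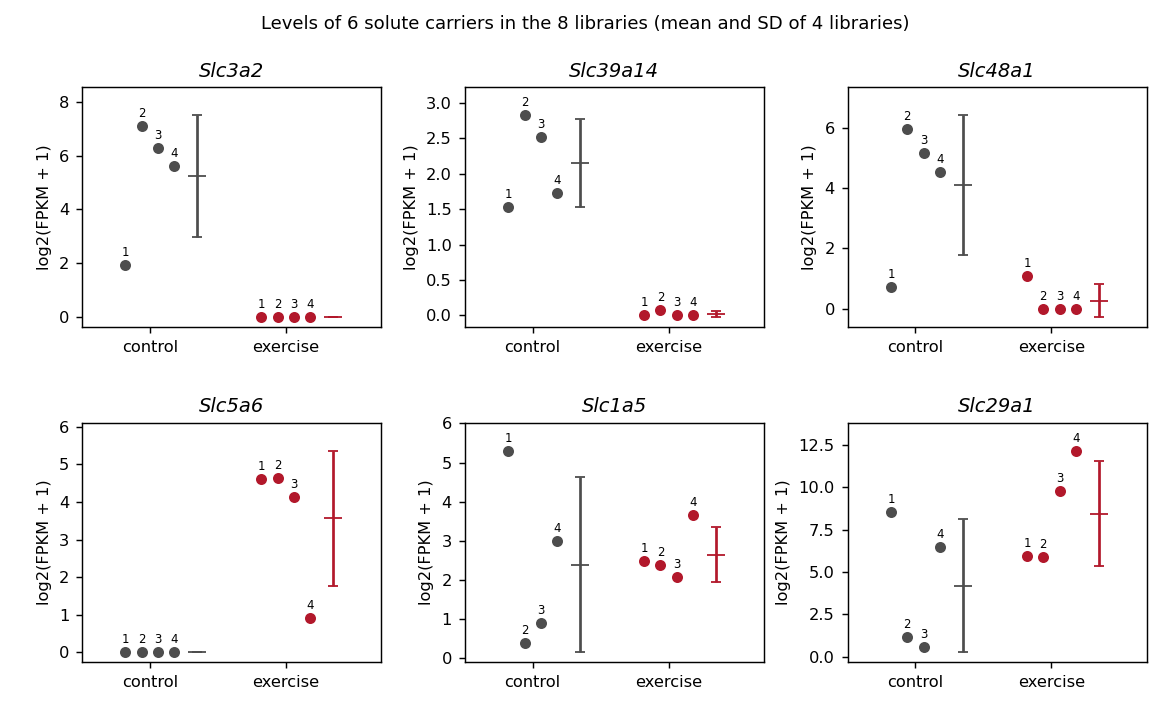
Level of 6 solute carriers, as log2(FPKM + 1), in each control (grey) and exercise (red) library, numbered by replicate, with the mean and SD of the 4 libraries of a group beside the points. Each panel has its own axis. The measured values of Slc3a2 and Slc39a14 lie lower and those of Slc5a6 higher in every exercise library, Slc48a1 overlaps through control 1, and the ranges of Slc1a5 and Slc29a1 overlap widely.

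Slc29a1 (ENT1), which lets nucleosides cross the plasma membrane, had the highest mean FPKM of the 28 members, which rested mostly on exercise 4. It was at 364, 1.22, 0.511 and 87.7 FPKM in control and at 61.6, 57.1, 881 and 4550 FPKM in exercise libraries. The spread within each group covered most of the difference (4.26, SE 2.03), which was not called (limma adjusted p = 0.119, exact permutation p = 0.171). In RPM, without the size factor of the deposited FPKM, it was at 1428, 5.63, 2.65 and 502 in control and 390, 361, 3261 and 4548 in exercise libraries. Its 2 highest exercise libraries were those with 50.2% and 68.7% mitochondrial reads, as for Slc39a13, and that part in the result was not tested.

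Slc16a1 (MCT1), which carries lactate and pyruvate with the chaperone Bsg, was at 0, 0, 1.51 and 1.25 FPKM in control and at 7.43, 6.09, 4.48 and 0.784 FPKM in exercise libraries. Exercise 4, with 1 read, fell within the control range. The difference of 1.67 (SE 0.70) was not called on the deposited scale (limma adjusted p = 0.0804), but was called under quantile normalization (2.82, adjusted p = 0.0159). Bsg itself was at 214, 43.9, 23.0 and 59.2 FPKM in control and at 0, 0, 1.99 and 32.5 FPKM in exercise libraries, and was called lower (-4.27, SE 1.22, limma adjusted p = 0.0296). Its groups overlapped, and the call held in 2 of the 8 fits that left out a library (limma adjusted p up to 0.0789) and was lost with exercise 1 and 2 averaged (limma adjusted p = 0.0781).

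The other members came from 3 classes. Slc35b1, which exchanges ATP and ADP across the endoplasmic reticulum membrane, was at 5.10, 10.6, 6.57 and 7.68 FPKM in control and at 7.53, 9.30, 2.43 and 0 FPKM in exercise libraries. Without a read in exercise 4, where a count of 0 allows up to 4.68 FPKM, it was not called (-0.99, SE 0.84, limma adjusted p = 0.342). Slc35e4, an orphan of the same family, was at 0, 25.4, 15.9 and 7.37 FPKM in control libraries and had 4 reads in exercise libraries (-2.73, SE 0.97, limma adjusted p = 0.0516).

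Slc4a4, a sodium bicarbonate cotransporter, and Slc20a2 (PiT2), a sodium phosphate cotransporter, had reads in every control and no exercise library. Slc4a4 was at 5.40, 0.725, 0.640 and 1.60 FPKM in control libraries (-1.39, SE 0.51, limma adjusted p = 0.0572). Slc20a2 was at 4.42, 1.58, 0.824 and 1.57 FPKM (-1.51, SE 0.46, limma adjusted p = 0.0348) and was called lower, at least 3.11-fold, or 1.96-fold without control 1. The call was lost without control 4 or exercise 1, 2 or 3 (limma adjusted p from 0.0868 to 0.1002). Relative to the median of all genes its difference was -0.09. Slc20a2 overlaps Smim19 on the other strand, which was at 20.0, 63.4, 31.4 and 29.2 FPKM in control and had 7 reads in exercise libraries.

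Promoter windows are shown for the 2 largest called falls and the 2 largest called rises that have an entry in RefSeq (GRCm38.p6), to set the letters before these genes beside their opposite directions. Of the 28 members, 21 matched an entry, and Slc1a5, Slc43a3, Slc48a1, Slc20a2, Slc39a14, Slc2a3 and Slc45a4 did not. Each window is the 250 bases before the gene's RefSeq start, 5′ to 3′ on the gene's strand. Capitals mark GC boxes, the letters GGGCGG on either strand. The windows are chr19:8713898-8714147 (minus strand) for Slc3a2, chr6:90618996-90619245 (plus) for Slc41a3, chr5:31048563-31048812 (minus) for Slc5a6 and chr13:34345219-34345468 (minus) for Slc22a23.
Slc3a2: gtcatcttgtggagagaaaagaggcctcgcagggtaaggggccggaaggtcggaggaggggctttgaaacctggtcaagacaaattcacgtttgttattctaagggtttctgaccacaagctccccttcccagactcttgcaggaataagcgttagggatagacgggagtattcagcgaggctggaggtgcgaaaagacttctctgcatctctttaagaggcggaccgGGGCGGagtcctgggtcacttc
Slc41a3: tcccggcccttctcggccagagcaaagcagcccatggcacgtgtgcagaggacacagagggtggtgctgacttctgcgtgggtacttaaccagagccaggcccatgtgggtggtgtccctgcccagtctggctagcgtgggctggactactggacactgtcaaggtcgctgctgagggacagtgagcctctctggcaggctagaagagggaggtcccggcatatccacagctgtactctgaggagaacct
Slc5a6: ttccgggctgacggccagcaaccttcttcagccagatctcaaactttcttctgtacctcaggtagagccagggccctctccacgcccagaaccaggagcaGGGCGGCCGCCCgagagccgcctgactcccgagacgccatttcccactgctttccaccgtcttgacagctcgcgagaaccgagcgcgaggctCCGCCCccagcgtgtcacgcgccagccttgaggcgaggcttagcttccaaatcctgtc
Slc22a23: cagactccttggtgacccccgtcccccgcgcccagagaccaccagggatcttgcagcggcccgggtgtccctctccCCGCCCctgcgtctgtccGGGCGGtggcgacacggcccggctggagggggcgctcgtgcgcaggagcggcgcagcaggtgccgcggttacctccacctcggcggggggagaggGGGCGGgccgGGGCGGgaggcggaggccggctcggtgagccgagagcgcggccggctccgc

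The windows of the 2 risen genes, Slc5a6 and Slc22a23, held 3 and 4 GC boxes and 63.6% and 78.4% G or C, and those of the fallen genes, Slc3a2 and Slc41a3, held 1 and 0 GC boxes and 53.6% and 61.2%. The median over all 32851 windows was 52.4%. A GC box was in 14 of the 21 members' windows and in 32.7% of all windows, an E-box (CANNTG) in 12 and 66.2%, a CCAAT box (CCAAT) in 3 and 33.9%, and a TATA box (TATAAA) in 0 and 12.4%, each searched on both strands. No searched motif contains another, and 2 GC boxes of Slc5a6 adjoin. These are matches of letters in a window. For Slc3a2, Slc41a3 and Slc5a6 the whole window lies inside the gene as the deposited table places it (chr19:8706882-8723369, chr6:90604725-90646412 and chr5:31036036-31048924), and for Slc22a23 it lies before the gene (chr13:34179158-34345182).

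A list of 25 carriers with known roles in muscle was drawn up by name. Of these, 8 were members (2 called lower, Slc3a2 and Slc20a2, and none higher, with 5 at an unadjusted p under 0.05 in limma, as were 2145 of all 4328 genes), 10 had reads but a mean below 1 FPKM, and 7 had no read (among them Slc27a1, Slc30a1, Slc38a1, Slc6a6, Slc7a8 and Slc8a1). Slc6a8, the creatine carrier, had 41 reads and Slc22a5, the carnitine carrier, 29, all in control libraries. Slc1a3, a glutamate carrier, had 48 reads, all in exercise libraries, at 1.40, 1.54, 0.634 and 0.406 FPKM.

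Carriers under other names and the partners of carriers were counted from lists in the same fit. Of 6 tested carriers with another symbol, 2 were higher (Dirc2 and Spns1) and 1 lower (Mpc2). Spns1, of the lysosomal spinster family, had no read in control libraries and was at 171, 163, 86.4 and 5.62 FPKM in exercise libraries (5.99, SE 1.04, limma adjusted p = 0.00391). Mpc2, a subunit of the mitochondrial pyruvate carrier, was at 134, 21.7, 18.1 and 36.4 FPKM in control and at 2.77, 1.79, 1.84 and 12.3 FPKM in exercise libraries (-3.11, SE 0.88, limma adjusted p = 0.0281). The Mpc2 call held in 4 of the 8 fits that left out a library and was lost under quantile normalization (limma adjusted p = 0.109) and with exercise 1 and 2 averaged (limma adjusted p = 0.0763). Of 3 tested sodium pump genes limma called 0, with 0 at an unadjusted p under 0.05. Of 11 tested partners, 1 was higher (Msn) and 3 were lower (Bsg, Tbc1d4 and Arl6ip5), beside 8.78% and 26.8% of all genes, which hold for the other lists as well.

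Arl6ip5, an inhibitor of the glutamate carrier encoded by Slc1a1, was at 132, 11.3, 3.91 and 28.2 FPKM in control libraries and had no read in exercise libraries. Tbc1d4, which holds GLUT4 vesicles inside the cell, was at 35.8, 21.4, 11.7 and 12.5 FPKM in control libraries and at 0.0779 FPKM in exercise 1 only. Both stayed called in all 8 fits that left out a library.

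Near the threshold of 1 FPKM were Slc2a8 (1.03 FPKM over the 8 libraries), Slc22a4 (1.04 FPKM) and Slc4a4 (1.05 FPKM) inside, and Slc39a10 (0.931 FPKM) and Slc9a3r1 (0.839 FPKM), a scaffold protein that bears a carrier's name, outside. Both outer genes had reads in control libraries only. In all, 54 of the 82 genes with reads lay below the threshold and 254 had no read, which at 3 reads per library leaves low levels undetected at this depth.

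The shares of reads kept in another library of the same group were also computed for single members. Slc41a1, Slc17a5 and Slc2a3, read in control 1 and not in control 3, kept 0.278, 0.339 and 0.271 of their reads in control 4, near the median of 0.281 over all such genes. Slc30a4, Slc38a2, Slc38a9 and Slc45a4, read in control 3 and not in control 1, kept 0.730, 0.789, 0.693 and 0.720, near the median of 0.714. Slc10a6, Slc35e4 and Slc44a1 kept less (0.600, 0.512 and 0.523). Exercise 3 held 0.726 of the Slc39a13 reads of exercise 4, and 0.360 and 0.279 of the Slc22a23 and Slc43a3 reads of exercise 1.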

How the data were processed

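Poly(A) RNA libraries of sorted SCs from 4 control and 4 exercise samples were compared, grouped by their labels. The authors deposited FPKM per gene and library. The submitters' processing notes name Bowtie 0.12.9, Cufflinks 2.1.1, HTSeq and mm10, and the methods test counts with DESeq2. Since the deposited unit is FPKM, limma was used here. Rows sharing a symbol were summed (101 rows fewer).

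Every FPKM times gene length was a whole multiple of 1 step per library (100% of values within 0.001), so reads were recovered. The step did not follow the read totals, so FPKM carries another size factor. A count of 0 was taken to allow 3 reads, which covers counting error only.

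The 4328 genes whose FPKM averaged 1 or more were fitted on log2(FPKM + 1), a scale that understates low genes, with limma 3.58.1 in R 4.3.3 (trend, two-sided, Benjamini-Hochberg over 4328 genes). Single members had exact two-sided permutation tests over 70 assignments. Tables were made in Python 3.11.15. All IDs of the 28 members are in GENCODE M21 of GRCm38, 26 with the same coordinates.

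On data simulated for this comparison over 4328 genes, limma recovered 200 of 200 genes changed by 3 (log2) at a spread of 0.5. In that run 17 unchanged genes were called. At a spread of 0.952 it recovered 172, with 13 unchanged genes called, and it called 0 when none changed. Each run had 1 spread. How limma does with genes that had no read in a group (1517 of the 4328), or with libraries that are not independent, was not tested.

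The members and lists were chosen with earlier results of these data known, and substrate classes follow family names. The rule for named members took called members with separate groups, the highest of each class, the muscle list and those nearest the threshold, 18 in all. The other 10 members were described after their values were seen. Alternatives were a pseudocount of 0.1, 2 other filters, 3 other scalings, no trend, a replicate block, leaving out each library, averaging exercise 1 and 2, also without control 4 and exercise 3, and voom on recovered reads. Equal depth and the shares of reads kept between libraries were added after seeing the data. Some genes are not reported here.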

Additional observations from a re-analysis of the deposited data

Results flagged for a closer look

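In 5 of the 41 groups of 4 libraries that were looked at, 1 library lay far from the other 3, and chance flags about 1 group in 20, or 2.05 of 41. That rate does not cover Slc48a1 and Slc39a14 below, where any read beside 3 libraries at 0 sets the library apart. It also takes the libraries of a group as independent, which the exercise libraries may not be, so it may not hold for the other groups either. Slc5a6 was at 0.869 FPKM in exercise 4 (1 read), against 16.5 FPKM in the nearest exercise library. Slc22a23 was at 0 in exercise 4, where the nearest library had 7.49 FPKM, and Slc50a1 was at 0 in exercise 4, where the nearest had 2.04 FPKM. For Slc50a1 a count of 0 in exercise 4 allows up to 7.10 FPKM, above the other exercise libraries, so it does not show exercise 4 apart. Slc48a1 was at 1.11 FPKM in exercise 1 (5 reads) with no read in the other exercise libraries. Slc39a14 was at 0.0594 FPKM in exercise 2, which is 1 read, with none in the other exercise libraries. The library apart was exercise 4, which had the fewest genes with reads (2348 rows against 3021 to 3289 in exercise 1 to 3), in 3 of these 5 groups, Slc50a1 included.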

How the results depend on the processing

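The difference of each of the 28 members was recomputed under 19 alternatives where it could be fitted, 516 values in all. Of these, 387 kept their direction and side of the threshold, 92 lost the call, 24 gained it and 13 changed sign. The number of members called lower (6 in the report) was 10 with a pseudocount of 0.1 (35.7%, against 33.4% of all genes), 9 with a constant sum (32.1% against 34.0%) and with read totals (against 32.1%), 4 of the 12 members left by a filter of 1 FPKM in 4 libraries (33.3% against 29.9%), 2 with no filter (7.14% against 6.71%), 1 with quantile normalization (3.57% against 8.66%), 2 with the replicate block (7.14% against 18.2%), 1 with the mean of exercise 1 and 2 as 1 sample, 0 when that fit also dropped control 4 and exercise 3, and 1 to 13 without each library in turn (13 without control 1, 46.4% against 34.9% of all genes, and 1 without exercise 1, 2 or 3, 3.57% against 8.39% to 9.77%). The number called higher (4) was 1 with no filter (3.57% against 2.59% of all genes), 1 with the filter in 4 libraries (8.33% against 12.1%), 2 with no trend (7.14% against 8.30%), 1 with the replicate block (3.57% against 6.24%), 0 in both fits that averaged exercise 1 and 2 (against 4.14% and 0%), and 0 to 5 without each library (5 without exercise 4, 17.9% against 12.9%). The replicate numbers that both groups carry do not pair the libraries by the labels, and the correlations of same-numbered deviations were -0.02, 0.04, 0.02 and 0.02. The median difference of amino acid carriers (-1.85) was -2.96 with the lower pseudocount, -2.48 with the filter in 4 libraries, -0.70 with quantile normalization and -2.30 with a constant sum. That of metal carriers (-2.03) was -4.37 with the lower pseudocount, -0.83 with quantile normalization, -2.59 with a constant sum and -4.10 with voom. That of the Slc35 family (-1.86) was -3.06 with the lower pseudocount and -0.57 with quantile normalization. That of organic ion carriers (1.51) was 4.21 with the lower pseudocount, 4.97 with voom and -1.60 with the filter in 4 libraries, which left fewer members. That of sugar carriers (-1.36) was -3.20 with the lower pseudocount, -0.48 with quantile normalization, -1.76 with a constant sum, -2.28 with voom and -1.62 to -1.23 without each library. That of the vitamin, choline and haem class (-0.10), which is Slc44a1, was 0.31 with the lower pseudocount, -1.96 with the filter in 4 libraries, 1.40 with quantile normalization, 0.63 with voom and -0.50 to 0.17 without each library, above 0 without control 2, control 3 or exercise 2. Slc1a5 (0.26) was -0.23 with a constant sum, -0.075 scaled to read totals, 1.45 with quantile normalization and -0.41 to 1.23 without each library, and with quantile normalization Slc35b1 was 0.41 and Slc50a1 0.21. Except for the smaller sets of genes or libraries, the cause was not tested. Depth limits the members with few reads, since a count of 0 allows up to 7.10 FPKM (Slc50a1 in exercise 4).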
